A study of Mus musculus with 7 samples.

Results

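The conjugating enzymes described here are the UDP-glucuronosyltransferases (UGT), glutathione S-transferases (GST) and sulfotransferases (SULT) of mouse kidney. Members are the protein-coding rows of the deposited count table with a gene name of the Ugt1 to Ugt3, Gst or Sult series and at least 10 counts in 3 or more of the 7 libraries. Of 64 rows with such a name and biotype, 41 were members: 14 UGT, 20 GST and 7 SULT genes, among 54532 genes in the table. The rule set a minimum level and did not use the difference between groups.

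The 7 libraries are bulk RNA-seq of kidney from C57BL/6J mice, 6 to 8 weeks old and male by the design text. Both groups received cisplatin, a platinum drug toxic to renal tubules, at 20 mg/kg by tail vein. The DXZ group (3 libraries) also received DXZ by tail vein at 40 mg/kg, first 30 min ahead of cisplatin and from then on at intervals of 24 h over 3 days; the labels give only this abbreviation. The other group (4 libraries) is labelled saline. All libraries analysed here had cisplatin, and a comparison with healthy kidney is not made. Whether the libraries of a group are separate mice is not labelled, so each p-value refers to the spread among these libraries, which may be technical.

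Conjugation attaches a polar group to a drug, hormone or reactive metabolite so that it can be excreted. UGT enzymes sit in the endoplasmic reticulum and use UDP-sugars, GST enzymes add glutathione to electrophiles, and SULT enzymes are cytosolic and transfer sulfate from the donor PAPS. The proximal tubule is known as the main site of this chemistry in the kidney, and glutathione conjugates of cisplatin are known to be processed further there.

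Total counts were 16243682 to 17498520 in the DXZ libraries and 16058157 to 18133736 in the saline libraries. The 41 members took 0.475% to 0.817% of counts in the DXZ libraries and 0.647% to 0.806% in the saline libraries. Mitochondrial transcripts took 5.18% to 7.58% of counts in the DXZ libraries and 6.10% to 8.36% in the saline libraries. The summed level of 12 proximal tubule markers, none of them at 0, was 3532 to 4626 CPM (read counts scaled to library size) in DXZ and 7471 to 14940 CPM in saline. By the edgeR test described below, 6 of these markers fell and none rose, against 2.31% and 3.24% of all genes tested. Falls were not confined to this segment. Of 4 markers of distal convoluted tubule 2 fell, and of 5 markers of thick ascending limb 1 fell, with none rising in either list. The summed level of 8 markers of injured tubule was 5413 to 8895 CPM in DXZ and 1837 to 3698 CPM in saline, and 3 of the 8 rose. Markers of collecting duct summed to 890 to 2522 CPM in DXZ and 512 to 1390 CPM in saline. Saline 1 had the highest proximal tubule sum and the lowest collecting duct sum. In bulk RNA, fewer cells of a type and less RNA per cell cannot be told apart.

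Some upstream sequences are shown first. The members with the largest falls, Ugt2b37 and Ugt2b38, lie in the same region of chromosome 5 and resemble each other before their start sites. Neither trait is particular to them. Ugt2b5, which did not pass the test, lies nearer to Ugt2b37 than Ugt2b38 does and shares part of the upstream sequence. Ugt2b37 and Ugt2b38 encode UGT2B enzymes, which glucuronidate steroids and drugs. The stretches below are from RefSeq (GRCm38.p6), minus strand, chr5:87254809-87255038 for Ugt2b37 and chr5:87424210-87424439 for Ugt2b38. They are written 5′ to 3′, and capitals mark the 13 of 230 aligned positions where the 2 differ.
Ugt2b37: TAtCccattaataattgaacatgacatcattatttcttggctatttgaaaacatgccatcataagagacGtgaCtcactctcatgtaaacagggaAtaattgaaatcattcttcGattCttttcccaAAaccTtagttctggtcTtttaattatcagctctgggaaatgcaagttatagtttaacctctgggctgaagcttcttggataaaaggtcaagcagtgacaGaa
Ugt2b38: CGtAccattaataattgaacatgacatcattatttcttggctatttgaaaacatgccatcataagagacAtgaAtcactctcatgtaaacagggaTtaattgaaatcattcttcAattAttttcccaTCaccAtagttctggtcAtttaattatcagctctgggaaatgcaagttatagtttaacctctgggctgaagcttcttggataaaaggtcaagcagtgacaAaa
The other 217 positions are the same. Over the 236 bases by which their 250-base windows overlap when aligned without gaps at the best offset, Ugt2b37 and Ugt2b38 shared 94.1% of bases. Ugt2b5, the third close relative, shared 57.0% with Ugt2b37 and 59.9% with Ugt2b38 when aligned in the same way. Both shares understate the likeness, because without gaps a difference in spacing puts part of the windows out of register. The stretch near the start site from gcaagttatagtttaacctc to caagcagtgaca is the same in Ugt2b5, Ugt2b37 and Ugt2b38. The 7 other pairs among the 5 UGT2B members shared 34.3% to 39.7%.

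The second set carries a motif of HNF1, a transcription factor of liver and renal tubule. The letters GTTAAT, then any base, then ATT, searched on both strands, occurred in 0.371% of 32851 RefSeq promoter windows of 250 bases. The 37 members with a RefSeq promoter had 47 such windows. The letters occurred in 4 of these windows, from 4 members, among them Sult1d1 and the UGT1A members Ugt1a1 and Ugt1a9. The windows of 30 bases below are on the minus strand of chr5:87569066-87569095 for Sult1d1, chr1:88211904-88211933 for Ugt1a1 and chr1:88070674-88070703 for Ugt1a9. Capitals mark the motif.
Sult1d1: ccactgatcaGTTAATAATTgactaagagt
Ugt1a1: tgtgcaaccaGTTAATGATTgattgtgccc
Ugt1a9: ttaaattcagGTTAATGATTtacttaaaag
Such a match of letters is a description and does not show binding. The letters TGACNNNGC of the antioxidant response element, on both strands, were in 10.2% of all windows. Among the 47 member windows they were in 3, from Gsta3, Gstm5 and Gstm7. The xenobiotic response core GCGTG was in 28.2% of all windows and in 9 of the 47 member windows, from 8 members. No member with any of these 3 motifs passed the test described next, but few members passed it, so no link can be read from this. Of those that passed, Ugt3a2 had no RefSeq promoter and was not searched. Ugt3a1 carried the shorter HNF1 letters GTTAAT, which were in 6.43% of all windows and in 8 of the 47 member windows, from 8 members.

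By edgeR's quasi-likelihood test with Benjamini-Hochberg adjustment over 15351 genes, 5 of the 41 members were lower in DXZ and none was higher at an adjusted p below 0.05. Over all genes tested, 5.56% passed, with 2.31% lower and 3.24% higher. All 5 that fell were UGT or SULT genes: Ugt2b37, Ugt2b38, Ugt3a1, Ugt3a2 and Sult1c2. At an unadjusted p below 0.05, 9 members were lower and 7 higher, against 25.4% of all genes in either direction, 11.4% lower and 14% higher. The groups did not overlap in CPM for 10 of the 41 members, against 24.1% of all genes. All 5 also passed by DESeq2, while limma-voom called Sult1c2, Ugt2b38 and Ugt3a1 and not the other 2. The median log2 fold change was -0.24 over the members and 0.01 over all genes tested. Among UGT genes 12 of 14 had a negative log2 fold change, against 7478 of 15351 genes tested. The 14 include 7 UGT1A genes that share exons, so these signs are not separate observations. By family the median log2 fold change was -0.57 for 14 UGT genes, 0.18 for 20 GST genes and 0.35 for 7 SULT genes.

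**Figure D1:**
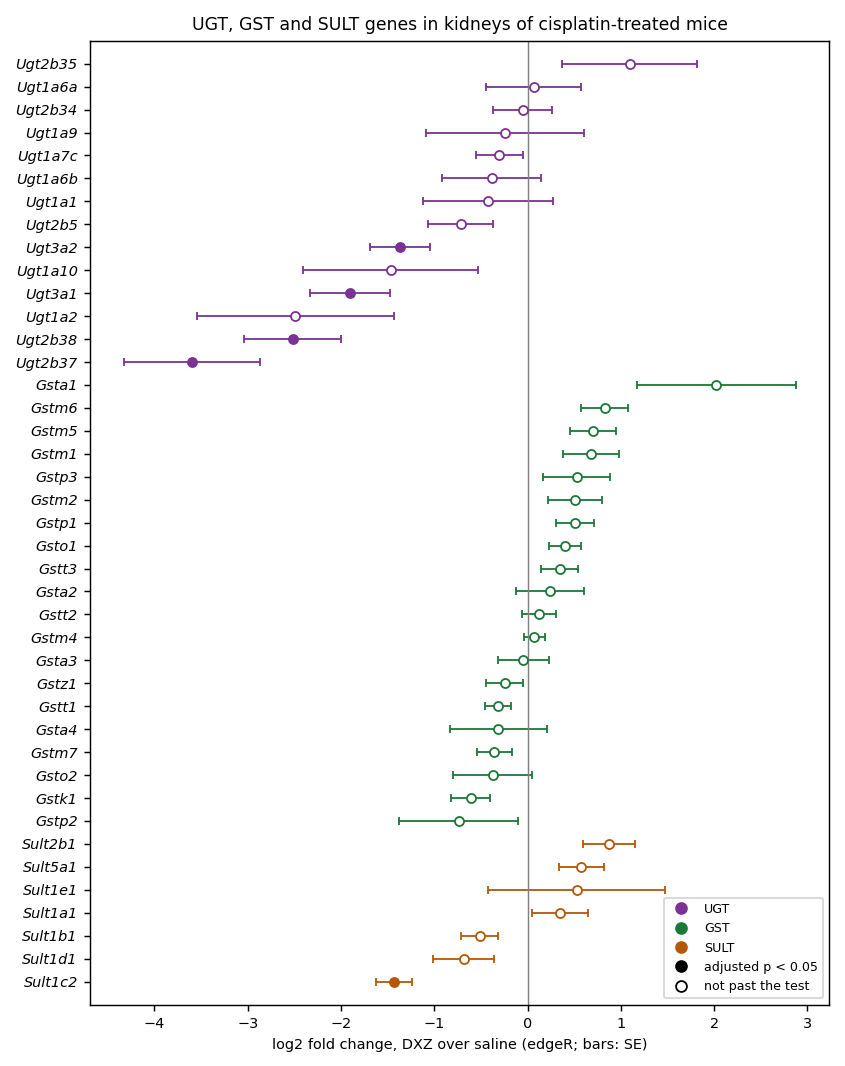
The log2 fold change of DXZ over saline for each of the 41 members (x axis, edgeR; bars are 1 SE) is ordered by size within UGT, GST and SULT. Filled points are the 5 members with an adjusted p below 0.05, all left of 0, and UGT genes lie mostly left of 0 while GST genes lie on both sides.

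The summed FPKM (counts scaled to library size and gene length, which lets levels of different genes be added) put the GST family highest and showed non-overlapping groups for UGT. Summed UGT levels were 239, 183 and 358 FPKM in DXZ 1 to 3, against 1019, 622, 587 and 826 FPKM in saline 1 to 4. That is 260 ± 89.7 FPKM in DXZ (SD, n = 3) and 763 ± 200 FPKM in saline (SD, n = 4), with every DXZ library below every saline library. By class, only the UGT2B and UGT3A sums were apart in this way, and these classes hold the UGT genes past the test. The UGT1A sum overlapped, at 50.6 to 114 FPKM in DXZ and 75.7 to 303 FPKM in saline. Summed GST levels were 1794, 3202 and 4099 FPKM in DXZ, against 1826, 2062, 2517 and 2589 FPKM in saline. On this scale DXZ 1 lay below every saline library, though close to saline 1, and the other DXZ libraries above every one. The order of DXZ 1 and saline 1 may depend on the scaling. Summed SULT levels were 337, 532 and 535 FPKM in DXZ and 407, 661, 926 and 927 FPKM in saline, and the groups overlapped. These sums are descriptions and carry no test.

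**Figure D2:**
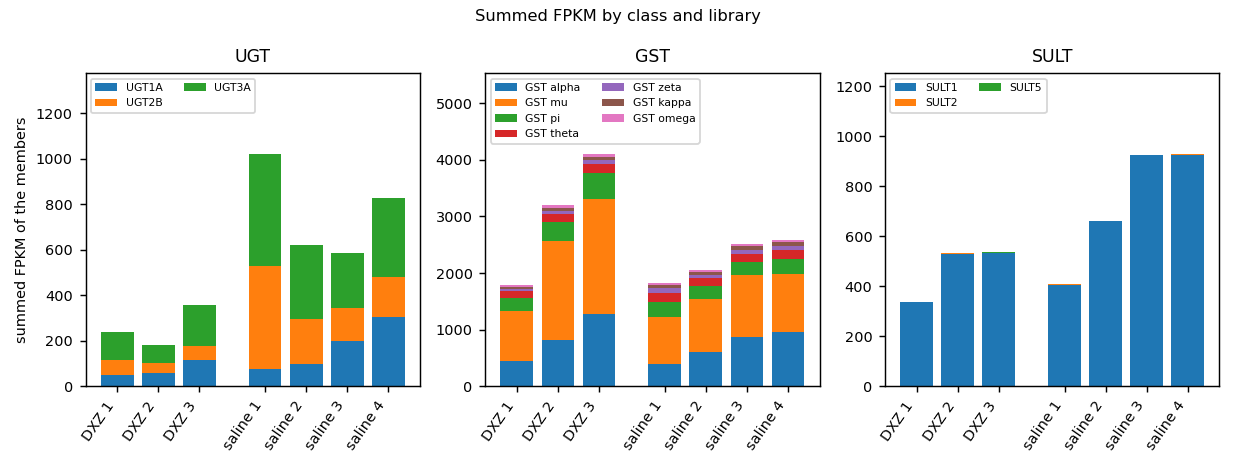
Summed FPKM of the members in each library (y axis; bars from 0) is stacked by class for UGT, GST and SULT, with DXZ 1 to 3 left of saline 1 to 4. UGT bars reach 183 to 358 in DXZ and 587 to 1019 in saline, whereas GST and SULT bars overlap between groups.

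Within UGT, the UGT2B and UGT3A classes carried the calls. The UGT2B class passed through Ugt2b38 and Ugt2b37, 2 of its 5 members. Ugt2b38 (ENSMUSG00000061906, chr5:87409942-87424203, minus strand) had 89.0, 32.7 and 65.2 CPM in DXZ 1 to 3, against 687, 295, 193 and 251 CPM in saline 1 to 4. The highest DXZ value was below the lowest saline value, and saline 1 stood well above the other saline libraries. Its log2 fold change was -2.52 (SE 0.52, adjusted p = 0.0388 by edgeR's quasi-likelihood test). Ugt2b37 (ENSMUSG00000057425, chr5:87240493-87254804, minus strand) had 5.24, 2.66 and 7.50 CPM in DXZ and 146, 45.9, 23.1 and 34.1 CPM in saline. The groups did not overlap, saline 1 was again highest, and the log2 fold change of -3.60 (SE 0.73, adjusted p = 0.0369, edgeR) was the most negative of the 41. Both calls were kept without DXZ 1, saline 1 or saline 3 and lost without DXZ 2, DXZ 3, saline 2 or saline 4. Over the omissions the log2 fold changes were -2.87 to -1.99 for Ugt2b38 and -3.98 to -2.74 for Ugt2b37, with edgeR adjusted p up to 0.108 and 0.116. Without DXZ 2, DXZ 3 or saline 4 no member of any family passed, so those losses are not particular to these genes.

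Both genes share sequence, so reads may be divided between them: 37.4% of 50-base stretches of the Ugt2b38 transcript and 18.3% of those of Ugt2b37 also occur in another gene. Summed over Ugt2b5, Ugt2b37 and Ugt2b38, the level was 96.9, 37.9 and 79.1 CPM in DXZ and 840, 346, 224 and 291 CPM in saline, so the sum did not overlap between groups either. Of the other UGT2B members, Ugt2b34 had a log2 fold change of -0.05 (SE 0.32, adjusted p = 0.943, edgeR), with 61.6 to 109 CPM in DXZ and 46.1 to 120 CPM in saline. Ugt2b35, near the minimum level at 0.338 to 1.65 CPM in DXZ and 0.0573 to 0.733 CPM in saline, had a log2 fold change of 1.09 (SE 0.73, adjusted p = 0.384, edgeR). Ugt2b5, outside the naming rule and given here for its sequence, had a log2 fold change of -0.72 (SE 0.35, adjusted p = 0.240, edgeR). The UGT2B members thus ranged from -3.60 to 1.09 in log2 fold change.

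Both UGT3A genes fell. UGT3A enzymes use UDP-sugars other than UDP-glucuronic acid, as known from the human proteins. Ugt3a2 (ENSMUSG00000049152, chr15:9335550-9370955, plus strand) had the highest mean FPKM of the UGT members, 114 FPKM in DXZ and 296 FPKM in saline. Its libraries held 343, 229 and 501 CPM in DXZ, against 1296, 853, 635 and 905 CPM in saline. The groups did not overlap, and the log2 fold change was -1.37 (SE 0.32, adjusted p = 0.0486, edgeR). Ugt3a1 (ENSMUSG00000072664, chr15:9276888-9315032, plus strand) had 44.0, 15.2 and 59.0 CPM in DXZ and 204, 139, 107 and 140 CPM in saline. The groups did not overlap, with DXZ 2 lowest of all, and the log2 fold change was -1.90 (SE 0.43, adjusted p = 0.0454, edgeR). Both calls sit near the threshold: without any 1 of the 7 libraries the edgeR adjusted p was 0.0554 to 0.128 for Ugt3a2 and 0.0542 to 0.111 for Ugt3a1, with log2 fold changes of -1.70 to -1.14 and -2.33 to -1.53. Ugt3a2 made up 43.6% of summed UGT FPKM in DXZ on average and 38.7% in saline.

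**Figure D3:**
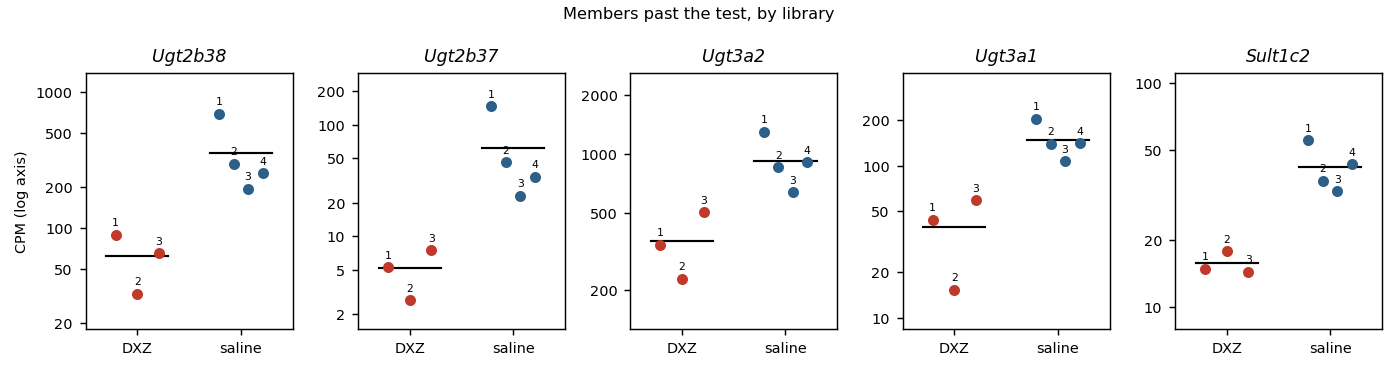
CPM of the 5 members past the test (log y axes) is shown by library, with the library number above each point and the group mean as a line; DXZ is left of saline. No DXZ point reaches the lowest saline point in any of the 5 genes, and saline 1 is the highest in each.

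The UGT1A genes share their last exons and differ in the first, so their counts are not separate. Their rows share 50.3% to 82.7% of exonic bases with other genes, counting both the cluster and Gm20528 on the opposite strand. None of the 7 passed, and 6 of the 7 had a negative log2 fold change. Ugt1a7c had 148, 120 and 238 CPM in DXZ and 273, 173, 179 and 206 CPM in saline (log2 fold change -0.30, SE 0.26, adjusted p = 0.504, edgeR). Ugt1a2 had 6.42, 25.7 and 37.4 CPM in DXZ, against 13.7, 34.5, 183 and 290 CPM in saline. Ugt1a10 had 28.1, 29.1 and 80.1 CPM in DXZ, against 7.51, 83.8, 152 and 264 CPM in saline. In both, saline 3 and saline 4 stood high and saline 1 was the lowest saline library, so the groups overlapped. The log2 fold changes were -2.49 (SE 1.06, adjusted p = 0.186, edgeR) for Ugt1a2 and -1.47 (SE 0.93, adjusted p = 0.364, edgeR) for Ugt1a10. With 1 library left out they were -3.02 to -1.73 for Ugt1a2 and -2.15 to -0.82 for Ugt1a10, the value nearest 0 being without saline 4 in both, and neither passed. The collecting duct marker sum was also lower in saline 1 and 2, at 512 and 571 CPM, than in saline 3 and 4, at 1390 and 1333 CPM. In DXZ 1 to 3 that sum was 1097, 890 and 2522 CPM. It was highest of all in DXZ 3, where Ugt1a2 and Ugt1a10 had 37.4 and 80.1 CPM. The part of the collecting duct sum in the UGT1A levels was not tested. Ugt1a6a, of low level, had 1.07, 2.24 and 5.73 CPM in DXZ and 2.52, 2.26, 3.18 and 3.53 CPM in saline, a log2 fold change of 0.07 (SE 0.51, adjusted p = 0.951, edgeR).

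None of the 20 GST genes passed the adjusted threshold by edgeR. At an unadjusted p below 0.05, 5 were higher and 2 lower, against 14% and 11.4% of all genes tested. DESeq2 called 1, Gstm6, higher. The mu class was the highest of the GST classes in FPKM, at 893, 1742 and 2037 in DXZ against 838, 945, 1105 and 1038 in saline. Gstm1, its most abundant member and the member of highest mean FPKM of the 41 (1141 in DXZ, 712 in saline), had 892, 1757 and 2417 CPM in DXZ and 931, 969, 1169 and 1141 CPM in saline. DXZ 1 lay below every saline library, and DXZ 2 and DXZ 3 above every one. Its log2 fold change was 0.68 (SE 0.30, adjusted p = 0.201, edgeR). Gstm5 had 301, 632 and 431 CPM in DXZ, against 220, 314, 329 and 257 CPM in saline (log2 fold change 0.70, SE 0.25, adjusted p = 0.131, edgeR). Gstm6 had 8.34, 8.47 and 10.5 CPM in DXZ and 3.15, 6.12, 6.29 and 4.94 CPM in saline, with no overlap (log2 fold change 0.83, SE 0.25, adjusted p = 0.0913, edgeR). The median log2 fold change of the 6 mu genes was 0.60, and 5 of them were above 0, against 7873 of 15351 genes tested. The DXZ libraries moved these values in both directions. Without DXZ 1 edgeR called Gstm1 (log2 fold change 0.99, adjusted p = 0.0269), Gstm5 (0.93, adjusted p = 0.0394), Gstp1 (0.72, adjusted p = 0.0305) and Gstt3 (0.56, adjusted p = 0.0493), all higher in DXZ, but not Gstm6 (0.88, adjusted p = 0.0869). Without DXZ 3 the log2 fold change was 0.33 for Gstm1 and 0.24 for Gstp1, and without DXZ 2 it was 0.38 for Gstm5, none of them past the test (edgeR adjusted p = 0.554, 0.482 and 0.379). DXZ 1 also stood apart from DXZ 2 and DXZ 3 in markers of other cell types. The stroma and smooth muscle sum was 588, 110 and 75.9 CPM in DXZ 1 to 3 and 156 to 432 CPM in saline, the endothelium sum 264, 91.1 and 58.0 CPM in DXZ and 163 to 264 CPM in saline, and the macrophage sum 307, 174 and 127 CPM in DXZ and 116 to 185 CPM in saline. No marker of these lists was at 0 in all libraries, and their part in the GST levels was not tested.

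The pi and alpha classes also detoxify electrophiles. Gstp1, the pi enzyme, had 171, 248 and 333 CPM in DXZ and 189, 161, 170 and 186 CPM in saline. DXZ 1 fell among the saline values and DXZ 2 and DXZ 3 above them. Its log2 fold change was 0.50 (SE 0.20, adjusted p = 0.169, edgeR). Its minor relatives Gstp3 and Gstp2 had log2 fold changes of 0.53 (SE 0.36, adjusted p = 0.394, edgeR) and -0.74 (SE 0.63, adjusted p = 0.510, edgeR). Gsta1 had the largest positive change of the 41 members, with 26.4, 92.3 and 176 CPM in DXZ and 2.87, 13.1, 35.7 and 45.1 CPM in saline. Its level varied widely within both groups, saline 1 being lowest and DXZ 3 highest, and the groups overlapped. The log2 fold change was 2.02 (SE 0.85, adjusted p = 0.183, edgeR), and 1.30 without DXZ 3. Of 50-base stretches, 89.7% of those of Gsta1 and 64.2% of those of Gsta2 also occur in other genes. Summed over Gsta1, Gsta2 and 2 related loci, Gm3776 and Gm10639, the level was 463, 811 and 1406 CPM in DXZ and 357, 570, 835 and 878 CPM in saline, so the sum overlapped too. Gsta2, the most abundant alpha gene, had 407, 643 and 1060 CPM in DXZ and 347, 532, 737 and 768 CPM in saline (log2 fold change 0.24, SE 0.37, adjusted p = 0.729, edgeR). Gsta4, which conjugates the lipid peroxidation product 4-hydroxynonenal, had 51.6, 139 and 143 CPM in DXZ and 47.8, 113, 173 and 219 CPM in saline (log2 fold change -0.32, SE 0.52, adjusted p = 0.750, edgeR).

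**Figure D4:**
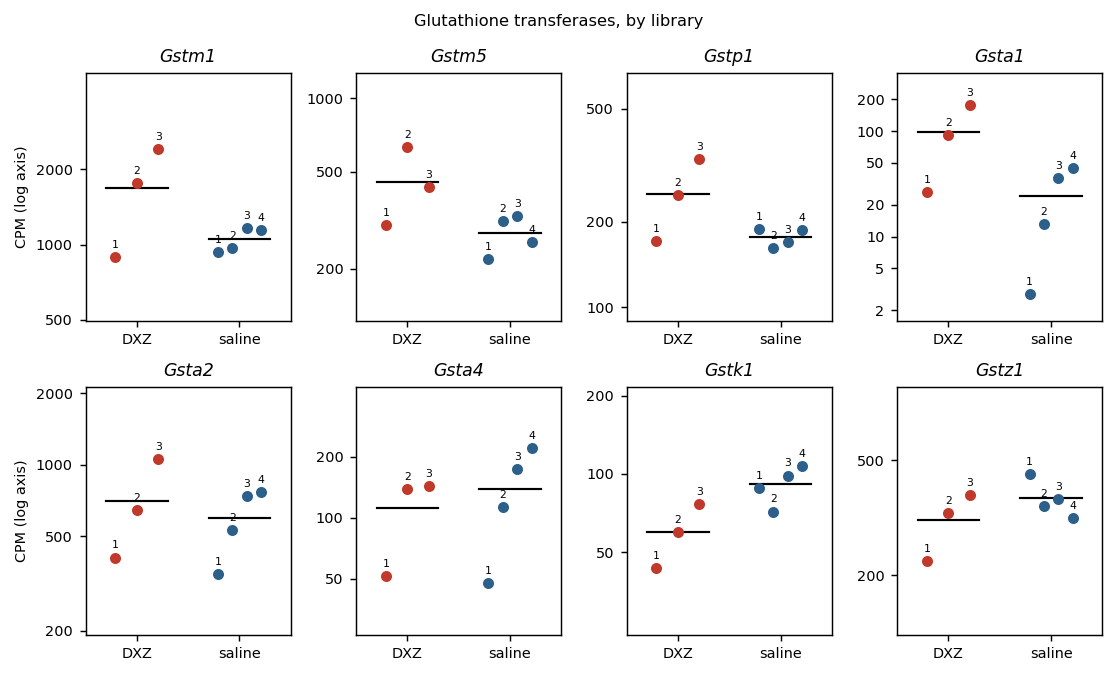
CPM of 8 GST genes (log y axes) is shown by library, with the library number above each point and the group mean as a line; DXZ is left of saline. DXZ 1 is the lowest DXZ library in each of the 8, and groups overlap in each.

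The remaining GST classes hold single genes or small sets. Gstk1, a GST of mitochondria and peroxisomes, had 43.5, 59.7 and 76.9 CPM in DXZ and 88.0, 71.8, 98.7 and 108 CPM in saline. DXZ 3 lay above saline 2, and the log2 fold change was -0.61 (SE 0.21, adjusted p = 0.118, edgeR). Gstt1, a theta enzyme, had 118, 122 and 122 CPM in DXZ against 169, 135, 124 and 174 CPM in saline, with no overlap and a log2 fold change of -0.31 (SE 0.14, adjusted p = 0.197, edgeR). Gsto1, an omega enzyme that reduces dehydroascorbate, had 83.7, 115 and 102 CPM in DXZ and 56.9, 77.3, 90.5 and 77.6 CPM in saline (log2 fold change 0.40, SE 0.17, adjusted p = 0.182, edgeR). Gstz1, the maleylacetoacetate isomerase of tyrosine breakdown, had 225 to 380 CPM in DXZ and 316 to 446 CPM in saline (log2 fold change -0.25, SE 0.20, adjusted p = 0.474, edgeR). Gstt2 and Gsto2 had log2 fold changes of 0.12 (SE 0.18) and -0.38 (SE 0.43), neither past the test (edgeR adjusted p = 0.715 and 0.635).

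Of 7 SULT genes, 1 fell and none rose. Sult1c2 (ENSMUSG00000023122, chr17:53829637-53846339, minus strand), a sulfotransferase of the family that acts on phenols, had 14.8, 17.7 and 14.4 CPM in DXZ and 55.5, 36.6, 32.9 and 43.4 CPM in saline. Every DXZ library was below every saline library, and the log2 fold change was -1.43 (SE 0.19, adjusted p = 0.0204, edgeR), the lowest adjusted p of the 41 members. The call was lost without DXZ 2, DXZ 3 or saline 4, omissions in which no member passed. The log2 fold changes were -1.54 to -1.27 over the 7 omissions (edgeR adjusted p up to 0.0747). Sult1d1, which sulfates catecholamines, made up 89.6% of summed SULT FPKM in DXZ and 91.9% in saline. It had 754, 1170 and 1190 CPM in DXZ and 891, 1502, 2151 and 2126 CPM in saline, with saline 1 below DXZ 2 and DXZ 3. Its log2 fold change was -0.68 (SE 0.33, adjusted p = 0.234, edgeR).

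Sult1a1, the phenol sulfotransferase, had 39.3, 60.0 and 61.3 CPM in DXZ and 20.8, 47.1, 51.6 and 48.8 CPM in saline (log2 fold change 0.35, SE 0.30, adjusted p = 0.520, edgeR). The other named SULT genes were all below 8 CPM in every library and did not overlap between groups. Sult2b1, a cholesterol sulfotransferase, had 5.02, 4.11 and 3.37 CPM in DXZ and 1.95, 1.90, 2.02 and 3.23 CPM in saline (log2 fold change 0.87, SE 0.28, adjusted p = 0.103, edgeR). Sult5a1 had a log2 fold change of 0.57 (SE 0.24, adjusted p = 0.185, edgeR). Sult1b1, which sulfates thyroid hormones, had a log2 fold change of -0.51 (SE 0.20, adjusted p = 0.154, edgeR).

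Genes that bring sulfate to these enzymes were examined as a list. Of 12 tested genes of sulfate uptake, donor synthesis and its reversal, 4 fell and none rose. Over all genes tested, 2.31% were lower and 3.24% higher. The median log2 fold change of the list was -0.28. Slc26a1, a basolateral sulfate exchanger, had 23.7, 12.5 and 17.3 CPM in DXZ and 80.5, 50.8, 49.7 and 65.3 CPM in saline (log2 fold change -1.79, SE 0.26, adjusted p = 0.0206, edgeR). Slc13a1, the apical sodium-sulfate cotransporter, had 689, 230 and 258 CPM in DXZ and 1087, 1387, 1050 and 1586 CPM in saline (log2 fold change -1.70, SE 0.40, adjusted p = 0.0498, edgeR). Neither gene overlapped between groups, and DXZ 1 was the highest DXZ library in both. Papss2, a PAPS synthase, averaged 139 ± 4.76 CPM in DXZ (SD, n = 3) and 274 ± 83.4 CPM in saline (SD, n = 4), and its log2 fold change was -0.97 (SE 0.22, adjusted p = 0.0452, edgeR). Bpnt1, which removes the PAP left by sulfation, averaged 128 ± 24.1 CPM in DXZ and 248 ± 35.8 CPM in saline (log2 fold change -0.95, SE 0.16, adjusted p = 0.0257, edgeR). Papss1, named outside the rule as the other PAPS synthase, had a log2 fold change of -0.12 and did not pass. Slc13a1 kept its call only without DXZ 1 (7 omissions), Papss2 without saline 1 or saline 3, Bpnt1 without DXZ 1, saline 1 or saline 3, and Slc26a1 without those 3 or saline 2. Over the omissions the edgeR adjusted p reached 0.128 for Slc13a1, 0.126 for Papss2, 0.0783 for Bpnt1 and 0.0747 for Slc26a1, with every log2 fold change below 0.

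**Figure D5:**
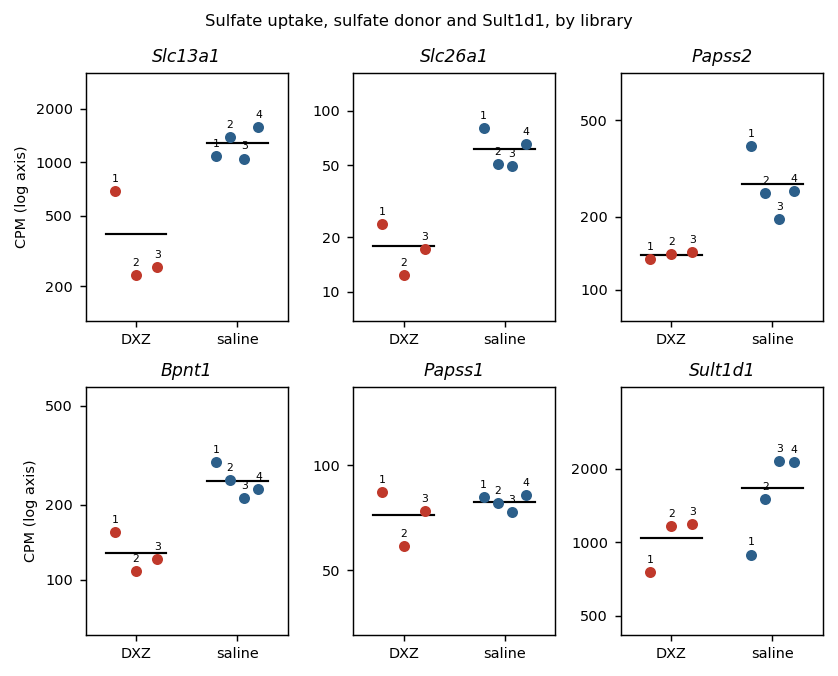
CPM of 5 genes of sulfate uptake and the sulfate donor and of Sult1d1 (log y axes) is shown by library, with the library number above each point and the group mean as a line; DXZ is left of saline. Slc13a1, Slc26a1, Papss2 and Bpnt1 do not overlap between groups, whereas Papss1 and Sult1d1 do.

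Genes that supply the other families were examined in the same way. For these lists and those of the next paragraph, the edgeR shares over all genes tested were 2.31% lower and 3.24% higher past the test. At an unadjusted p below 0.05 they were 11.4% lower and 14% higher. Of 8 genes that supply or reverse glucuronidation none passed by edgeR, with 1 higher and 2 lower at an unadjusted p below 0.05, 2 lower by DESeq2 and none by limma-voom. Slc35d1, which carries UDP-glucuronic acid into the endoplasmic reticulum, had the lowest p, at 56.3 ± 8.54 CPM in DXZ and 80.5 ± 5.70 CPM in saline (log2 fold change -0.52, SE 0.12, adjusted p = 0.0510, edgeR). Of 14 genes of glutathione supply 1 rose and 2 fell by edgeR, and DESeq2 called 2 higher and 4 lower. G6pdx, which makes NADPH, averaged 76.2 ± 11.8 CPM in DXZ and 45.3 ± 2.69 CPM in saline (log2 fold change 0.75, SE 0.12, adjusted p = 0.0215, edgeR). Slc1a1, a glutamate and cysteine transporter, had a log2 fold change of -0.61 (adjusted p = 0.0300, edgeR) and Chac2, which degrades glutathione, of -0.65 (adjusted p = 0.0452, edgeR). The call for G6pdx was lost without DXZ 2, DXZ 3 or saline 4 (edgeR adjusted p up to 0.0819), that for Slc1a1 was kept without DXZ 1 or saline 3 (up to 0.0999 otherwise), and that for Chac2 was kept without saline 3 alone (up to 0.120 otherwise). Of 12 genes of the mercapturic acid route, which trims glutathione conjugates, none passed by edgeR; 5 were lower and none higher at an unadjusted p below 0.05, DESeq2 called 5 lower, and limma-voom called none. The median log2 fold change of that list was -0.53, and Ggt6 had its lowest p (log2 fold change -0.67, adjusted p = 0.0623, edgeR).

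Among 18 other transferases 2 fell: Inmt, an N-methyltransferase, with 9.36, 6.23 and 9.45 CPM in DXZ and 321, 42.8, 54.6 and 127 CPM in saline (log2 fold change -4.03, SE 0.77, adjusted p = 0.0313, edgeR), and Hnmt, the histamine methyltransferase (log2 fold change -0.69, adjusted p = 0.0463, edgeR). Among 10 conjugate exporters Abcc6 fell (log2 fold change -1.52, adjusted p = 0.0488, edgeR), a call lost without any 1 library (edgeR adjusted p 0.0546 to 0.140). Among 20 regulators the small Maf proteins Mafk and Maff, partners of NRF2 at antioxidant response elements, rose, with log2 fold changes of 0.58 (adjusted p = 0.0316, edgeR) and 0.87 (adjusted p = 0.0420, edgeR). The call for Maff was lost without any 1 library (edgeR adjusted p 0.0524 to 0.108), and those for Mafk and Hnmt were kept without DXZ 1 alone (log2 fold changes 0.47 to 0.67 for Mafk and -0.80 to -0.54 for Hnmt over the omissions). Inmt lost its call without DXZ 2, DXZ 3 or saline 4 (up to 0.108).

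The 5 called members were set against the summed proximal tubule markers, which also fell, in a description chosen after the values were seen. Per 1000 CPM of the marker sum, Ugt2b38 stood at 20.1, 9.24 and 14.1 CPM in DXZ and 46.0, 31.9, 25.9 and 24.5 CPM in saline. Ugt2b37 stood at 1.18, 0.753 and 1.62 CPM in DXZ and 9.75, 4.96, 3.09 and 3.33 CPM in saline. Neither gene overlapped between groups on this scale. Ugt3a1 stood at 4.31 to 12.8 CPM in DXZ and 13.6 to 15.1 CPM in saline, also without overlap. Ugt3a2 stood at 65.0 to 108 CPM in DXZ and 85.0 to 92.1 CPM in saline, and Sult1c2 at 3.11 to 5.02 CPM in DXZ and 3.71 to 4.41 CPM in saline, so both overlapped. The markers of the sum fell unequally, with log2 fold changes from -3.56 for Slc7a13, -3.10 for Slc22a8 and -2.88 for Slc34a1 to -0.78 for Aqp1. Slc27a2, with a log2 fold change of -0.84, was the largest part of the sum in DXZ, at 1671 to 1886 CPM. The scale therefore depends on the markers chosen. The part of the proximal tubule markers in these results was not tested.

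Of the members near the minimum level, Gsto2 had 82 counts over the 7 libraries, Ugt2b35 84 and Sult1e1 115. Outside it, Ugt2a3 had 58, Gstm3 55 and Sult4a1 23. All 41 members passed the filter on low counts. The 10 members that the naming rule left out had log2 fold changes from -0.72 for Ugt2b5 to 0.53 for Sult1e1, and none of them passed even at an unadjusted p below 0.05.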

How the data were processed

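The deposited count table gives raw whole-number counts for every gene in each library. Each deposited FPKM value equals the deposited count over gene length and a library constant, and so adds no independent measurement. The submitters' processing notes name HISAT2, StringTie and mm9, with neither versions nor roles; the counting program and its use of strand were not given in the sources used here, and antisense or near-identical genes are therefore uncertain. Per the labels, the RNA was a Trizol extract. Coordinates are as in the tables; 37 of 41 members had the same start and end in GENCODE M21, so they are taken as GRCm38.

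Groups follow the sample titles, and no column of other samples was present (0 columns). The filterByExpr function of edgeR 4.0.16 (R 4.3.3) kept 15351 of 54532 genes, of which 27180 had any count. The groups were compared by edgeR's quasi-likelihood F test on TMM-scaled counts with Benjamini-Hochberg adjustment over all genes, at an adjusted p below 0.05; each SE is the absolute log2 fold change over the root of its F statistic. CPM uses TMM-scaled library sizes. The test was tested on simulated data with known changes. Replicate libraries differed by at least 14 times the counting noise (chi-square over its degrees of freedom), and no library was counted as a duplicate.

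Members and lists were chosen with earlier results of these data known. The rule for named members took every member with an adjusted or unadjusted p below 0.05, the 2 of highest mean FPKM in each class, and the 2 largest increases and decreases in each family; from each pathway list, every gene past the test or otherwise the 1 of lowest p. It named 31 of 41 members; Ugt2b5, Gstt3, Gsta3, Gstm7, Sult1e1, Ugt1a1 and Ugt1a9 are named outside it. Alternatives were DESeq2 1.42.0, limma 3.58.1 on counts (voom) and on log2 FPKM with a pseudocount, other filters and scalings, omission of each library, and the replicate number as a block. A sequence of 1 further member is not reported here.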

Additional observations from a re-analysis of the deposited data

Results flagged for a closer look

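Among 31 named members, 2 had 1 saline library that lay apart from the other 3, as a gap to the nearest library, over the range of the 4, above Dixon's critical value. Sult1a1 had 20.8 CPM in saline 1 (gap over range 0.853), below the other saline libraries. Sult2b1 had 3.23 CPM in saline 4 (gap over range 0.915), above the other saline libraries. Chance marks about 1 in 20 groups, and the DXZ group of 3 libraries was not examined this way.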

How the results depend on the processing

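Over all genes the count of changed genes was 853, and it was 2011 by DESeq2, 145 by limma on unfiltered log2(FPKM + 1), 85 with the replicate block, and 1 to 1574 with 1 library left out. The UGT count of 4 became 2 with robust dispersions and 2 by limma-voom, 0 by limma on unfiltered log2(FPKM + 1), 0 with the replicate block, and 0 to 2 with 1 library left out. The GST count of 0 became 1 by DESeq2 (Gstm6) and 1 with the replicate block (Gsta1, log2 fold change 2.73, edgeR adjusted p = 0.0391), and it was 0 to 4 with 1 library left out. The SULT count of 1 became 0 with the replicate block and 0 to 1 with 1 library left out. Without DXZ 2, DXZ 3 or saline 4, no member and no named pathway gene passed. A call lost in those omissions is therefore not particular to its gene. The block moved the log2 fold changes of Ugt1a10 to -0.31 and of Ugt1a2 to -1.28, neither past the test. Deviations of same-numbered libraries correlated at 0.26, -0.09 and 0.23, and those of other pairs at -0.46 to 0.43. Deviations from means of so few libraries depend on each other, so these values cannot decide whether the replicate numbers pair the libraries.

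Signs turned for 6 named members, all with an edgeR adjusted p of 0.510 or more. Gsta4 was 0.044 with the replicate block and -0.60 to 0.028 with 1 library left out. Ugt1a6a was -0.019 by limma on unfiltered log2(FPKM + 1), -0.080 with the replicate block and -0.80 to 0.47 with 1 library left out. Ugt2b34 was 0.10 with the replicate block and -0.29 to 0.14 with 1 library left out. With 1 library left out, Gsta2 was -0.18 to 0.52, Gstp2 -1.001 to 0.11 and Gstt2 -0.10 to 0.29. Of the values of named members and pathway genes under the alternatives, 603 kept direction and side of the threshold, 128 lost the call, 8 gained one and 14 turned sign. The cause was not tested. Scaling by median-of-ratios size factors moved the median of all genes by less than 0.1 on the log2 scale. With 3 and 4 libraries, changes smaller than the spread between these libraries were not detectable.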
